A study of Mus musculus with 6 samples.

Results

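Galactosyltransferases of the Golgi take galactose from UDP-galactose and add it to glycoproteins, glycolipids and proteoglycans. Their substrate is made in the cytosol, in part from free galactose, and is carried into the Golgi by the UDP-galactose transporter SLC35A2. The enzymes differ in what they build. B4GALT1 to B4GALT4 mainly place galactose on N-acetylglucosamine. B4GALT5 and B4GALT6 make lactosylceramide, the start of most complex glycosphingolipids. B4GALT7 and B3GALT6 add the inner galactoses of the linker that holds glycosaminoglycan chains on proteoglycans.

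The genes described were B4galt1 to B4galt7, B3galt6, B3galnt1 and Slc35a2, taken by symbol from the deposited table, which gave 10 of its 34745 genes. B3galnt1 does not match the rest, since its enzyme uses UDP-N-acetylgalactosamine and not UDP-galactose, as the gene's description in the table also states. RNA was sequenced from NOR-10, an established line of mouse skeletal muscle fibroblasts, so all libraries come from cells in culture. The D-gal group (n = 3) received 20 mg/mL D-gal for 3 days to induce senescence, and the control group (n = 3) received PBS. Nothing in the labels says that replicates were separate cultures, so p-values measure the spread between these libraries, which may be technical.

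Total counts were 16876087 to 20830349 per library in the control group and 13759108 to 15157064 in the D-gal group, so every control library was deeper. Thinned to the smallest total, the counts gave log2 fold changes of -1.01 for B4galt5, -0.36 for B4galt1 and 0.55 for B3galt6, all past the test. Mitochondrial genes held 4.26% to 4.44% and 4.87% to 4.98% of the counts. Of 10 fibroblast marker genes 8 passed the filter on low counts, and their list summed to 7150 to 7354 CPM (counts scaled to a standard library total) in the control and 4692 to 4817 in the D-gal group. Lum and Fap, also on that list, did not pass it. Myogenic markers summed to 5.35 to 6.08 and 3.68 to 4.02 CPM, with Myod1, Myf5 and Pax7 at 0 counts. Endothelial markers summed to 4.52 to 5.40 and 3.09 to 3.38, immune markers to 4.69 to 18.0 and 4.61 to 5.60, adipocyte markers to 0.963 to 1.66 and 1.2 to 2.01, and epithelial markers to 7.0 to 8.48 and 1.76 to 2.61 CPM. Of the epithelial markers only Cdh1 passed the filter, with 140 to 142 raw counts per control and 26 to 37 per D-gal library, so that sum mostly shows Cdh1. Adipoq, Cfd, Lep, Epcam and Cd3e had 0 counts. The part of these markers in the results below was not tested. In bulk RNA, fewer cells of a kind and less RNA per cell cannot be told apart.

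B4galt5 and B4galt1, the genes with the highest control levels per exon length of the 10, were lower under D-gal. B3galt6, the gene with the lowest control level of the 10, was higher, though its call was lost in 6 of 14 alternative fits. The other 7 genes did not pass the test. Thus 3 of the 10 (30%) passed edgeR's quasi-likelihood test at an adjusted p-value under 0.05, where 34.8% of all 13407 genes tested did. In the direction of the change, 1 of the 10 was higher (16.9% of all genes) and 2 were lower (17.8%). With a change of at least 1 on the log2 scale required as well, the study's threshold, 1 gene remained (4.21% of all genes). All 10 genes passed the filter on low counts, and their median log2 fold change was -0.01 against 0.00 over all genes. The share of these genes that changed was therefore near the background.

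**Figure D1:**
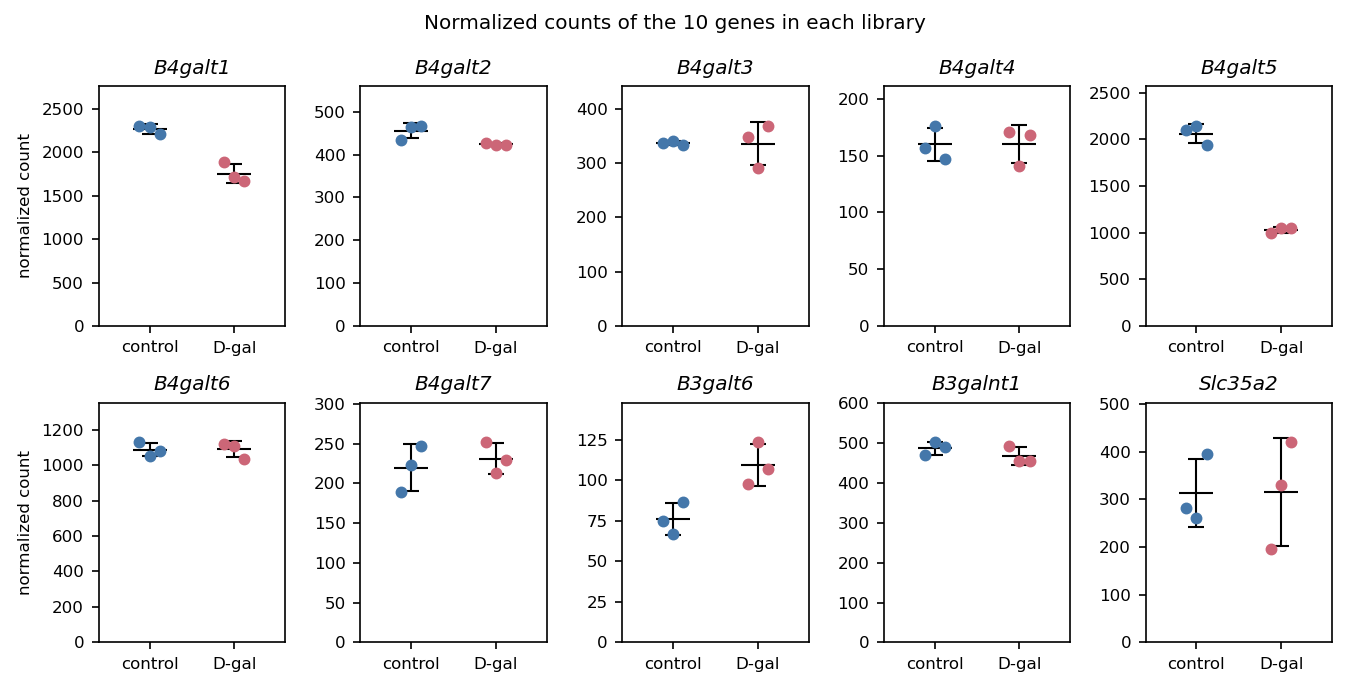
Normalized counts (y axis, from 0, a separate scale for each gene) of the 10 genes in the 3 control (blue) and 3 D-gal (red) libraries. Points are libraries and the black marks are the mean and SD; B4galt5 fell from 2060 ± 105 to 1028 ± 31.2 normalized counts, while the Slc35a2 points spread from 195 to 419 within the D-gal group.

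Because B4galt5 and B4galt1 moved down and B3galt6 moved up, the stretch before their transcription start is shown, with that of B4galt7, the linker partner of B3galt6. These windows were chosen after the values were seen. The sequences are from a table of RefSeq promoters (GRCm38.p6) in which 9 of the 10 genes were matched, B4galt6 not being used here, and run 5′ to 3′ on the gene's strand from 250 to 31 bases before the start. Capitals in B4galt5 and B4galt1 mark the GC box GGGCGG, which reads CCGCCC on the other strand, searched on both strands with overlapping matches counted separately, and capitals in B3galt6 mark a repeated word. The windows are chr2:167349209-167349428 (minus strand) for B4galt5, chr4:40854015-40854234 (minus strand) for B4galt1, chr4:155992709-155992928 (minus strand) for B3galt6 and chr13:55599646-55599865 (plus strand) for B4galt7.
B4galt5: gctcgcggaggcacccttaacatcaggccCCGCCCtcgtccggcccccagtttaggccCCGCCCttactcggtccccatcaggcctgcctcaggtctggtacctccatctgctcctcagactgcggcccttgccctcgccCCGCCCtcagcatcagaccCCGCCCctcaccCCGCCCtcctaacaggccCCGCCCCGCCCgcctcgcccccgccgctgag
B4galt1: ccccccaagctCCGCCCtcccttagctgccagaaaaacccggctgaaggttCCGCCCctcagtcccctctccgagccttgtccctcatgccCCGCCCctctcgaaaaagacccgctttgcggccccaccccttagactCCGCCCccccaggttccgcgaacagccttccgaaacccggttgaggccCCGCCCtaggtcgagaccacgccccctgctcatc
B3galt6: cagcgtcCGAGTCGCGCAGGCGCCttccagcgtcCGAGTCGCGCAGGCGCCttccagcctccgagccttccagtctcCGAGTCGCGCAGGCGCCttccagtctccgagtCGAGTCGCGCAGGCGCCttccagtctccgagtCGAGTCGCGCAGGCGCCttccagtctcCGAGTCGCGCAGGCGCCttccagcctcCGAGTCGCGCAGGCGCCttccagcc
B4galt7: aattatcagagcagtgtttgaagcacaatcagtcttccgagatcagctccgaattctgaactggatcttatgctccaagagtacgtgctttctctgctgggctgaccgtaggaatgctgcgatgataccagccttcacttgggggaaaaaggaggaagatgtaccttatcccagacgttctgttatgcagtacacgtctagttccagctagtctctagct

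The B4galt5 window held 7 GC boxes and the B4galt1 window 5. Among all 32851 promoter windows of that length, 28.5% held at least 1 GC box, 1.14% at least 5 and 0.198% at least 7. B4galt2 had 2, B4galt4 and B3galnt1 had 1 each, and B4galt3, B4galt7, B3galt6 and Slc35a2 had 0. The GC content was 72.7% in the B4galt5 window and 67.3% in the B4galt1 window, against a median of 51.8%. It was 71.4% in the B3galt6 window and 70% in the B4galt2 window. The part of GC content in the number of GC boxes was not tested. The B3galt6 window held 7 copies of a word of 17 bases. The word was picked from that window, so its absence from all other windows of the table was not a test. These matches are a description of letters, and no binding was measured.

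B4galt5 (ENSMUSG00000017929, chromosome 2, 167298444 to 167349183, minus strand, GRCm38), which encodes the main lactosylceramide synthase of most tissues, showed the largest change. The control libraries held 2095, 2142 and 1942 normalized counts of it, against 992, 1045 and 1047 with D-gal (counts scaled to a common library size). Each D-gal library lay far below each control library. The fall was 2.00-fold, a log2 fold change of -1.003 (standard error 0.05, 95% interval -1.12 to -0.89). With the quasi-likelihood test of edgeR and Benjamini-Hochberg adjustment this gave an adjusted p = 9.03e-06, number 59 by p-value among all genes tested. A two-sided exact permutation test gave p = 0.1, the smallest that 3 libraries against 3 allow. The size lay on the fold threshold, so the call of a change of at least 1 on the log2 scale did not hold when control replicate 1, control replicate 2 or D-gal replicate 1 was left out (-0.99, -0.97 and -0.98).

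B4galt6 encodes the other lactosylceramide synthase, and its transcript differed little between the groups. It had 1128, 1053 and 1079 normalized counts with PBS and 1120, 1111 and 1036 with D-gal, so the groups overlapped. Its log2 fold change was 0.00 (95% interval -0.12 to 0.12, adjusted p = 0.968 from the same edgeR test). Per exon length, the level of B4galt6 was 0.392 ± 0.0244 of that of B4galt5 with PBS and 0.787 ± 0.0517 with D-gal (SD, n = 3). On the log2 scale the ratios were -1.32, -1.45 and -1.28 in the control and -0.26, -0.34 and -0.45 in the D-gal libraries, with no overlap. The difference of 1.005 had p = 0.1 in the two-sided exact permutation test (0.2 adjusted over the 4 family measures compared). The summed level of both synthase genes under D-gal was 64.1% of control (39.6 ± 1.48 and 25.4 ± 0.398 CPM per kilobase of exon, SD, n = 3).

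B4galt1 (ENSMUSG00000028413, chromosome 4, 40804602 to 40854005, minus strand), the widely expressed enzyme that extends N-glycans and, with alpha-lactalbumin, makes lactose, had 2305, 2299 and 2209 normalized counts in the control libraries. In the D-gal libraries they were 1884, 1716 and 1671, and the groups did not overlap. The difference on the log2 scale was -0.37 (standard error 0.05, 95% interval -0.49 to -0.25, adjusted p = 0.00101 from the same edgeR test), or 22.6% lower. The exact permutation test gave p = 0.1. The change passed the test in each of the 14 alternative fits. Lalba, the alpha-lactalbumin gene, had 0 counts in all libraries.

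B4galt2, B4galt3 and B4galt4, the other members that act on N-acetylglucosamine, did not pass the test. The values of B4galt2 lay between 435 and 467 normalized counts in the control and between 422 and 428 in the D-gal group, without overlap, yet the log2 fold change of -0.10 (95% interval -0.25 to 0.04) had an adjusted p = 0.248 from the same edgeR test. Groups without overlap were found for 4 of the 10 genes, against 49.1% of all genes tested. B4galt3 and B4galt4 had log2 fold changes of -0.01 (95% interval -0.23 to 0.21) and 0.00 (-0.28 to 0.28). Counts of B4galt2 and B4galt3 are uncertain. The exons of B4galt2 overlap those of Ccdc24 on the same strand over 1417 bases, and those of B4galt3 overlap Ppox on the other strand over 791 bases, while the use of strand in counting is not stated. B4galt7 overlaps a gene on the other strand over 110 bases. B4galt1, B4galt4, B4galt5, B4galt6, B3galt6, B3galnt1 and Slc35a2 have no exon overlap with another annotated gene.

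**Figure D2:**
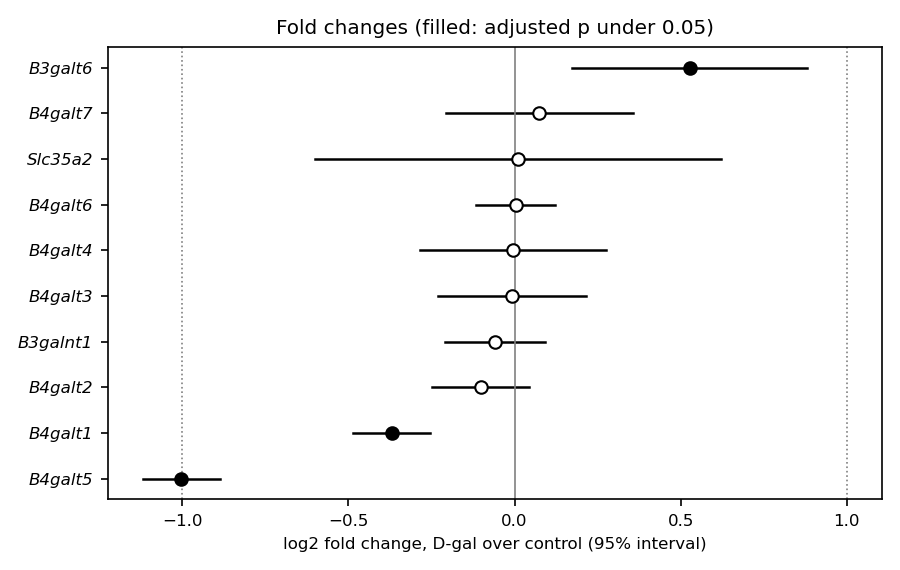
Log2 fold change of each of the 10 genes, D-gal over control (x axis), with its 95% interval. Filled points passed an adjusted p-value under 0.05 and dotted lines mark -1 and 1; the interval of B4galt5 (-1.12 to -0.89) contains -1, and that of Slc35a2 (-0.60 to 0.62) is the widest.

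The linker enzymes differed from each other in their test results. B3galt6 (ENSMUSG00000050796, chromosome 4, 155989466 to 155992649, minus strand), a gene with 1 exon, had 74.9, 66.9 and 86.8 normalized counts in the control and 97.6, 123 and 107 in the D-gal libraries. All D-gal values were above all control values. Raw counts were only 82 to 113 per library, so counting noise weighs more here than for B4galt5. Its log2 fold change was 0.53 (standard error 0.15, 95% interval 0.17 to 0.88, adjusted p = 0.0308 from the same edgeR test, and p = 0.1 in the exact permutation test). This rise depended on the method and on single libraries. DESeq2 gave an adjusted p = 0.0685, and leaving out control replicate 1, control replicate 2, D-gal replicate 2 or D-gal replicate 3 gave edgeR adjusted p-values of 0.0772, 0.0942, 0.0967 and 0.0658. The log2 fold change itself stayed between 0.35 and 0.63 in all alternatives. B4galt7, which acts just before B3galt6 on the linker, had 189, 223 and 247 normalized counts in the control and 251, 213 and 229 in the D-gal libraries, with overlap. Its log2 fold change was 0.07 (95% interval -0.21 to 0.36, adjusted p = 0.682 from the same edgeR test). The log2 ratio of B3galt6 to B4galt7 per exon length was -1.66 ± 0.20 with PBS and -1.22 ± 0.29 with D-gal (SD, n = 3). These groups overlapped, and the two-sided exact permutation test gave p = 0.2 (0.267 adjusted over the 4 family measures). With 3 libraries against 3 this test cannot give a p-value below 0.1, so it cannot decide whether the linker genes differed.

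Slc35a2 (ENSMUSG00000031156, chromosome X, 7884041 to 7894492, plus strand), the Golgi UDP-galactose transporter, differed more within groups than between them. It had 282, 262 and 395 normalized counts with PBS and 195, 331 and 419 with D-gal. The lowest and the highest of the 6 values were both in the D-gal group, 2.15-fold apart. Of the 2725 genes with a mean of 200 to 500 normalized counts, 2.06% had a spread within a group at least as large. Between groups the log2 fold change was 0.01 with a 95% interval from -0.60 to 0.62 (adjusted p = 0.979 from the same edgeR test). A change of up to about that size in either direction was therefore not excluded. B3galnt1, which makes globoside from globotriaosylceramide, had 470, 502 and 491 normalized counts in the control and 493, 455 and 455 in the D-gal libraries. The log2 fold change of -0.06 (95% interval -0.21 to 0.09) did not pass the test.

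Levels can be set side by side between genes only per length, here as CPM per kilobase of annotated exon. In the control group the order was B4galt1 (32.0 ± 0.759), B4galt5 (28.5 ± 1.45), B3galnt1 (14.3 ± 0.479), B4galt6 (11.1 ± 0.387), B4galt2 (5.39 ± 0.210), B4galt7 (4.52 ± 0.602), Slc35a2 (3.94 ± 0.902), B4galt3 (3.68 ± 0.043), B4galt4 (2.97 ± 0.272) and B3galt6 (1.43 ± 0.188; SD, n = 3). Libraries of neighbours in this order did not overlap, except those of B4galt7 and Slc35a2 and of Slc35a2 and B4galt3. Under D-gal the order of the means was the same, but B4galt5 (14.2 ± 0.432) was no longer apart from B3galnt1 (13.7 ± 0.632), and B4galt2 was no longer apart from B4galt7. The gap from B4galt1 to B4galt5 was 1.12-fold with PBS and 1.74-fold with D-gal.

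**Figure D3:**
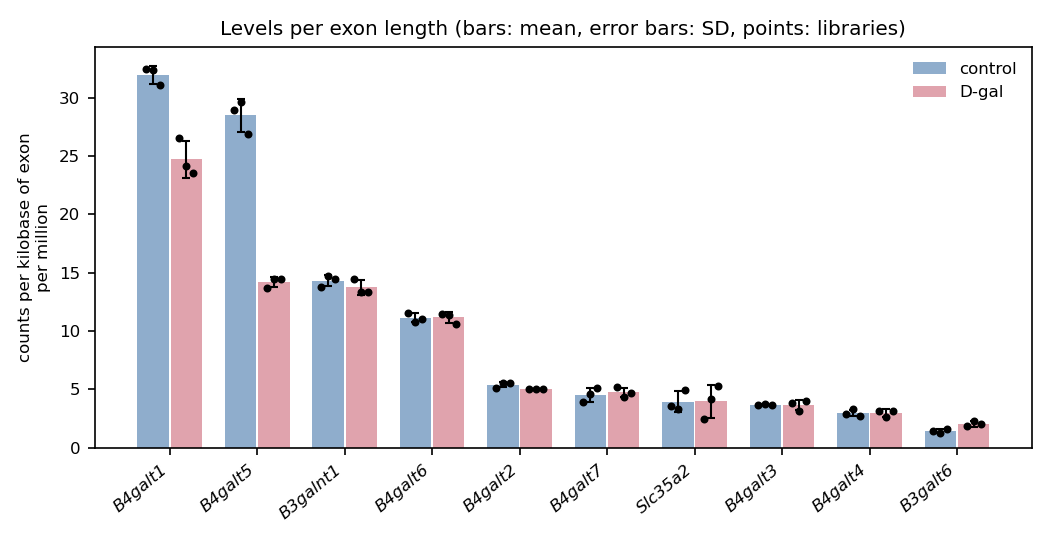
Level of each gene per exon length (y axis, CPM per kilobase of exon, from 0) in the control (blue) and D-gal (red) group, as mean bars with SD and the 3 libraries as points. B4galt5 stood at 28.5 with PBS and at 14.2 with D-gal, next to B3galnt1 at 13.7.

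The summed level of B4galt1 to B4galt7 was 88.2 ± 1.97 CPM per kilobase of exon with PBS and 66.5 ± 2.08 with D-gal (SD, n = 3), or 75.5% of control. All D-gal libraries (65.2 to 68.9) lay below all control libraries (86.0 to 89.8), with p = 0.1 in the two-sided exact permutation test and 0.2 adjusted over the 4 family measures. B4galt5 supplied 32.3% ± 0.933 of the sum with PBS and 21.4% ± 1.29 with D-gal. The share of B4galt6 was 12.7% ± 0.547 and 16.8% ± 0.634. The share of B4galt1 was 36.3% ± 0.314 and 37.1% ± 1.28. The difference of 0.895 percentage points had p = 0.4 in the exact permutation test, which cannot fall below 0.1 with these libraries. This difference was 1.77 percentage points with the deposited FPKM (p = 0.1 in the exact permutation test), 0.231 without D-gal replicate 1 and 1.51 without D-gal replicate 3.

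**Figure D4:**
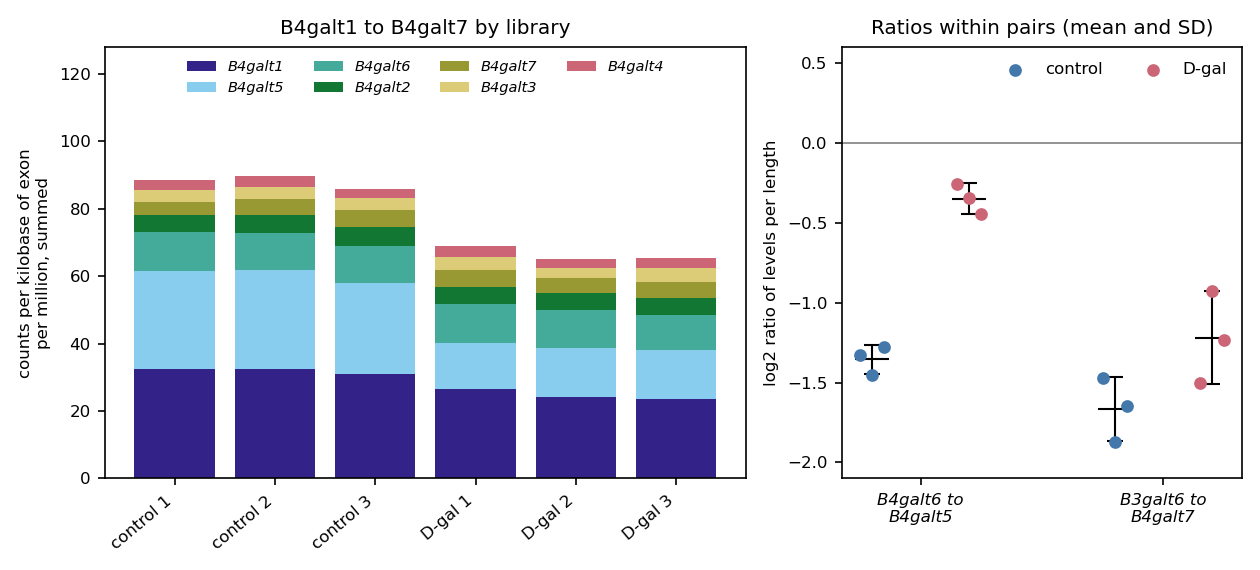
Left, level of B4galt1 to B4galt7 per exon length stacked for each library (y axis, CPM per kilobase of exon). Right, log2 ratio of levels per length within the lactosylceramide synthase pair and the linker pair, with mean and SD; the B4galt6 to B4galt5 ratio went from -1.35 to -0.35, while the linker ratios of the groups overlapped.

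The genes around these enzymes were counted from lists of pathway genes. The counts stand beside 16.9% of all genes tested that rose and 17.8% that fell, and no list was tested against other genes. In glycosphingolipid synthesis 1 of 6 genes tested rose and 1 fell, with a median log2 fold change of 0.12. The gene that fell was Ugcg, which makes glucosylceramide, the substrate of B4GALT5 and B4GALT6. It went from 2031 ± 63.5 to 1224 ± 112 normalized counts (SD, n = 3), or -0.73 as a log2 fold change (adjusted p = 1.34e-04 from the same edgeR test). B4galnt1, which starts complex gangliosides, rose by 0.20 on the log2 scale, but its exons overlap another gene on the other strand over 715 bases. Among 14 tested genes of N-glycan branching and capping, 3 rose and 4 fell. Man2a1, a Golgi mannosidase that trims N-glycans ahead of the galactosyltransferases, fell by 0.63 on the log2 scale, and Mgat4b, a branching enzyme, fell by 0.39. The genes that rose, named after their values were seen, were St6gal1 by 0.51, Man2a2, the paralog of Man2a1, by 0.23 and St3gal6 by 1.52. St3gal6 had only 10 to 36 raw counts per library. St6gal1, Man2a2 and St3gal6 share 200, 427 and 1603 exon bases with genes on the other strand. The median log2 fold change of this list was -0.06.

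Of 14 tested genes that build the glycosaminoglycan linker and start the chains, 3 rose and 2 fell, with a median log2 fold change of -0.02. Csgalnact2, which begins chondroitin chains on the finished linker, rose by 0.24 and Ext1, a heparan sulfate polymerase, by 0.15 on the log2 scale. Csgalnact1, the paralog of Csgalnact2, was added after its values were seen. It had a log2 fold change of -0.44 (adjusted p = 0.0152 from the same edgeR test). Xylt1, whose xylosyltransferase lays the first sugar of the linker, was chosen after its values were seen; it fell by 0.83, at only 23 to 65 raw counts per library. Of 9 other nucleotide sugar transporters 3 rose and 0 fell, with a median log2 fold change of 0.04. Slc35d1 rose by 0.58 and Slc35b4 by 0.31 on the log2 scale. Slc35b4, which carries UDP-xylose and UDP-N-acetylglucosamine, overlaps a gene on the other strand over 919 bases.

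Among the 8 genes of UDP-galactose supply 4 rose and 2 fell (34.8% of all genes changed either way), the median log2 fold change being 0.19. Galm, the mutarotase that readies galactose for phosphorylation, rose by 0.69, and Ugp2, which makes UDP-glucose, rose by 0.37 on the log2 scale. The genes that fell, named after their values were seen, were Galk1, the galactokinase gene, by 0.38 and Pgm1 by 0.28 on the log2 scale. Pgm2, also picked with its values known, was among the genes that rose, by 0.33. Pgm1 and Pgm2 are both named as phosphoglucomutase genes. The names alone do not tell which of the enzymes serves that step in these cells, and this was not tested. Pgm2 shares 398 exon bases with Itgb3bp on the other strand. Of 7 other galactosyltransferase genes tested, 1 rose and 0 fell, with a median of 0.02. The gene that rose was C1galt1, which puts galactose on mucin-type O-glycans, from 1018 ± 63.7 to 1715 ± 134 normalized counts (SD, n = 3), or 0.75 as a log2 fold change (adjusted p = 1.43e-04 from the same edgeR test). Colgalt1, which adds galactose to collagen, had a log2 fold change of 0.12 that missed the threshold (adjusted p = 0.0549 from the same edgeR test). Colgalt1 shares 495 exon bases with Unc13a on the other strand.

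**Figure D5:**
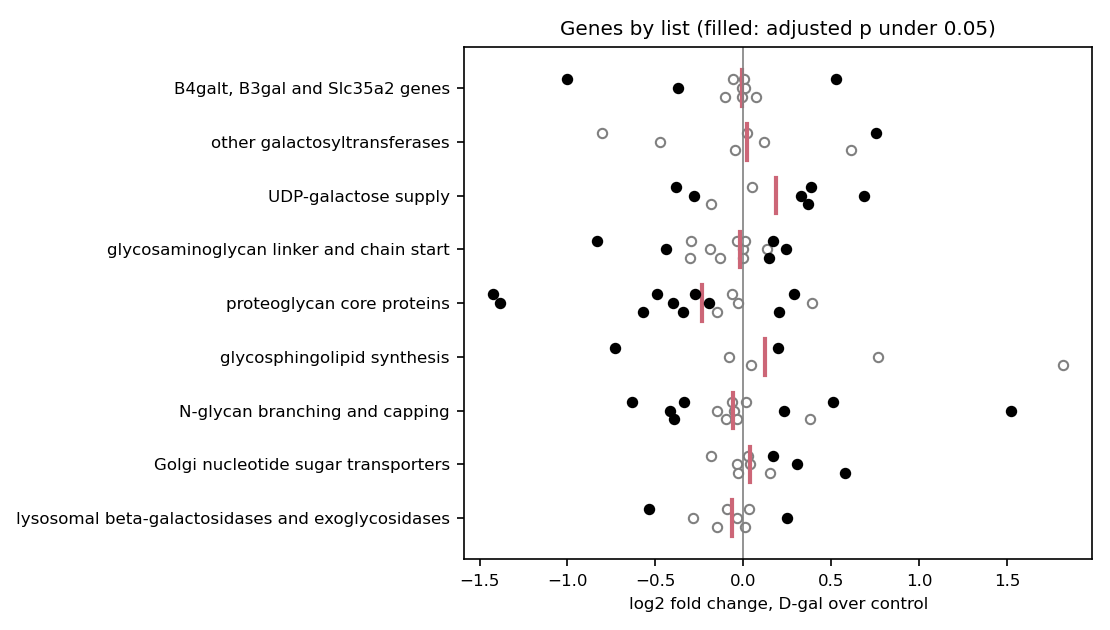
Log2 fold change, D-gal over control (x axis), of the tested genes of each list (rows). Filled points passed an adjusted p-value under 0.05 and the red bar is the list's median; the leftmost point of the first row is B4galt5 at -1.003, and the medians lay between -0.23 and 0.19.

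Over the 6 libraries, the genes whose log2 normalized counts followed B4galt5 most closely were Fam129b, Ube2c and Cx3cl1 (Pearson's r of 0.999, 0.999 and 0.998). Their log2 fold changes were -0.30, -0.49 and -0.71. The 6 points share the difference between the groups, and these genes are given as a description.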

How the data were processed

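RNA-seq of NOR-10 cells comprised 3 control and 3 D-gal libraries, grouped by their titles. The dose and duration are from the study's methods. According to the labels, the authors aligned reads with HISAT2 (version 2.0.4). The counting tool, its strand setting and the annotation are not given in the sources used here. The library kit is a small RNA kit in the methods but an RNA-seq kit in the labels. The deposited counts are whole reads per gene, without normalization. The deposited FPKM values were divided by the authors by a gene length and the library total, and for 6 of these 10 genes that length exceeded the union of annotated exons.

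Counts were fitted over all genes with edgeR (version 4.0.16, R 4.3.3), using TMM normalization, filterByExpr, the quasi-likelihood test and Benjamini-Hochberg adjustment, with no covariate. Normalized counts are counts scaled to the mean effective library size. Standard errors are the log2 fold change over the square root of F, and intervals cover 95%. Levels per length used the union of exons in GENCODE M21 (GRCm38), where 9 of the 10 genes had the table's ends. Single measures were compared with exact two-sided permutation tests (10 distinct splits for a two-sided test). No pair of libraries of a group agreed within counting noise (their chi-square was 6.00 to 9.42 times its degrees of freedom).

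The 10 genes and the gene lists were chosen with earlier results of these data known. Named outside the 10 by rule were the tested genes of each pathway list with the 2 smallest p-values. The 3 genes most correlated with the member of smallest p-value were also named by rule. Xylt1, Csgalnact1, St6gal1, Man2a2, St3gal6, Galk1, Pgm1, Pgm2, Glb1 and Cdh1 were added after their values were seen. Dcn was added because it is on both the core protein and fibroblast marker lists. Alternatives were DESeq2 (version 1.42.0), RLE factors, other count filters, thinned counts, the replicate block, left-out replicates, limma (version 3.58.1) on log2(FPKM + 1) or log2(FPKM + 0.1), glmTreat and stricter p-values. The fits were tested on simulated counts.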

Additional observations from a re-analysis of the deposited data

How the results depend on the processing

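The falls of B4galt5 and B4galt1 kept their direction and their side of the p-value threshold in all 14 alternative fits (log2 fold changes from -1.04 to -0.92 and from -0.42 to -0.33). The count of genes past the fold threshold went from 1 to 0 with limma on log2(FPKM + 1), limma on log2(FPKM + 0.1) and glmTreat, and ranged from 0 to 1 with replicates left out, since B4galt5 lies on that threshold. The rise of B3galt6 missed the p-value threshold with DESeq2 (0.53, adjusted p = 0.0685). With the replicate block it also missed it (0.53, adjusted p = 0.0657), and the block reversed the sign of Slc35a2 (-0.0218) and changed no other call among the 10 genes. No pairing of the libraries by number was seen. Deviations from the group means correlated at -0.01, 0.00 and 0.03 between same-numbered libraries, and not every library correlated best with its own number. With 3 libraries per group this cannot exclude a pairing. With replicates left out, B3galt6 ranged from 0.43 to 0.63 and the 3 calls became 2 to 3.

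Genes near 0 changed sign. B4galt3 was 0.0156 and 0.0207 with the limma fits, B4galt4 was 0.0215, 0.0206 and 0.0302 with thinned counts and the limma fits, and B4galt6 was -0.00565 without a filter. With replicates left out, the ranges were -0.0792 to 0.0865 for B4galt3, -0.0604 to 0.0809 for B4galt4, -0.0176 to 0.0371 for B4galt6, -0.0236 to 0.164 for B4galt7 and -0.25 to 0.26 for Slc35a2. The difference between groups in the log2 ratio of B4galt6 to B4galt5 ranged from 0.95 to 1.05, and that of B3galt6 to B4galt7 from 0.30 to 0.59.

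Levels per length depend on the gene length. The deposited FPKM in the control and D-gal groups were 2.93 and 2.79 for B4galt2, 1.87 and 1.91 for B4galt3, 1.74 and 1.78 for B4galt4, 25.8 and 13.2 for B4galt5, 2.73 and 2.94 for B4galt7, and 2.66 for Slc35a2 in the control group. Under them the D-gal order changed, with B3galnt1 at place 2, B4galt5 at 3, B4galt7 at 5, B4galt2 at 6, B3galt6 at 8, B4galt3 at 9 and B4galt4 at 10, so B3galt6 was lowest in the control group only. With library totals, B4galt2 was 5.08 in the D-gal and B4galt3 3.63 in the control group. Counts under about 100, as for B3galt6 and Xylt1, limit the precision.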

Other observations

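Of 14 tested genes for proteoglycan core proteins, which carry the glycosaminoglycan chains, 8 fell and 2 rose, where 17.8% of all genes tested fell and 16.9% rose. The median log2 fold change was -0.23 against 0.00 over all genes, and the list was not tested against other genes. Of the 8 fibroblast markers tested, 6 fell and 1 rose. Dcn, which encodes decorin, is on both lists, and the part of the fibroblast markers in the counts of the core proteins was not tested. Fmod, which encodes the collagen-binding fibromodulin, fell from 286 ± 22.6 to 110 ± 4.38 normalized counts (SD, n = 3), and Hspg2, which encodes perlecan, fell by 0.40 on the log2 scale.

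Among 8 genes of lysosomal enzymes that remove galactose and neighbouring sugars, 1 rose and 1 fell. Gla, an alpha-galactosidase gene, fell by 0.54 and Galc, the galactosylceramidase gene, rose by 0.25 on the log2 scale. Galc overlaps a gene on the other strand over 400 exon bases. Glb1, the lysosomal beta-galactosidase behind the senescence stain, was looked up after its values were seen and had 791 ± 30.7 and 773 ± 30.1 normalized counts (SD, n = 3). Its log2 fold change of -0.03 (95% interval -0.16 to 0.10, adjusted p = 0.685 in edgeR) did not pass the test. Glb1 shares 165 exon bases with Tmppe on the same strand. The study reported cellular aging by that stain in NOR-10 cells given D-gal. The counts here are of RNA and do not measure the enzyme activity that the stain shows.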
